A study of Mus musculus with 6 samples.

Results

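The galectins, the galectin-binding glycoprotein gene Lgals3bp and the receptor gene Havcr2 were followed in 4T1 cells, a mouse mammary carcinoma line, with and without forced expression of Limch1. The members were 8 genes out of 26094 listed, chosen by symbol: Lgals1, Lgals3, Lgals4, Lgals7, Lgals8, Lgals9, Lgals3bp and Havcr2. RNA sequencing covered 3 libraries of cells stably carrying mouse Limch1 in the lentiviral plasmid PLVX-ires-neo (Limch1_OE) and 3 libraries of cells carrying the empty vector (Vector). Both groups were infected with virus packaged in HEK293T cells with psPAX2 and pMD2.G, both were placed under antibiotic selection 48 hours after infection, and both grew in RPMI medium with 10% fetal bovine serum. The sources used here do not give the promoter that drives the transgene, the number of infections, or whether a line was a pool or a clone, and uninfected cells were not analysed here. Separate cultures within a group are not mentioned in the labels. The p-values therefore set the group difference only against the spread of these libraries within groups. That spread may be technical, so the p-values may not extend to new infections or cultures.

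Galectins are small lectins that bind galactose-containing glycans and leave the cell without a signal peptide. Prototype galectins such as galectin-1 and galectin-7 have a single carbohydrate-binding domain and pair up, galectin-3 is the chimera type with a long flexible tail, and the tandem-repeat types, encoded by Lgals4, Lgals8 and Lgals9, join different binding domains by a linker. Outside the cell they crosslink receptors and can restrain or kill T cells, and inside it galectin-3 and galectin-8 mark damaged lysosomes. Galectin-9 is induced by interferons and is a ligand of TIM-3, the checkpoint receptor that Havcr2 encodes and that is best known from exhausted T cells and myeloid cells.

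Levels are FPKM, fragments normalised for transcript length and library size, summed over the listed transcripts of a gene, so genes can be set side by side. Summed over all transcripts, the Limch1_OE libraries held 421767 to 425064 FPKM and the Vector libraries 414837 to 416242 FPKM. How many reads lie behind these values is unknown. Limch1 itself stood at 23.96, 23.31 and 25.69 FPKM in the Limch1_OE libraries, against 0.25, 0.15 and 0.1 FPKM in the Vector libraries, as the titles say. The groups parted along the first principal component (74.9% of variance), and the second (9%) spread the Limch1_OE libraries (scores 14.4, -4.4 and -10.6) but not the Vector libraries (-0.1 to 0.5). The 7 epithelial markers analysed (Epcam, Krt8, Krt18, Krt19, Krt7, Krt14 and Cdh1) summed to 1468 to 1624 FPKM per Limch1_OE library and 1490.4 to 1562 FPKM per Vector library. Of these, Epcam and Cdh1 were called lower by the test given below (log2 fold changes -0.44 and -0.18), Krt7 was called higher (0.37), and the other 4 were not called. All 8 leukocyte markers analysed were below 1 FPKM in every library, with sums of 0.23 to 0.5 FPKM per Limch1_OE library and 0.14 to 0.69 FPKM per Vector library.

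Lgals9 fell 12.6-fold, Lgals3bp 6.08-fold and Havcr2 2.05-fold in Limch1_OE as ratios of mean FPKM, whereas Lgals1, Lgals3 and Lgals8, the other galectin genes tested, did not pass the test. Lgals4 and Lgals7 were too low to be tested. The test was limma on log2(FPKM + 1) with Benjamini-Hochberg adjustment over the 11842 genes that reached 1 FPKM in 3 or more libraries, and a gene was called at an adjusted p under 0.05. Of the 8 members 6 were tested, 3 were called lower and 0 higher, while 34.6% of all tested genes were called, 14.4% lower and 20.2% higher. Of all calls 41.7% were lower, or 58.6% with libraries rescaled by the trimmed mean of M values, which moved the median log2 fold change of all tested genes from 0.04 to -0.02. The median log2 fold change of the 6 tested members was -0.35.

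**Figure D1:**
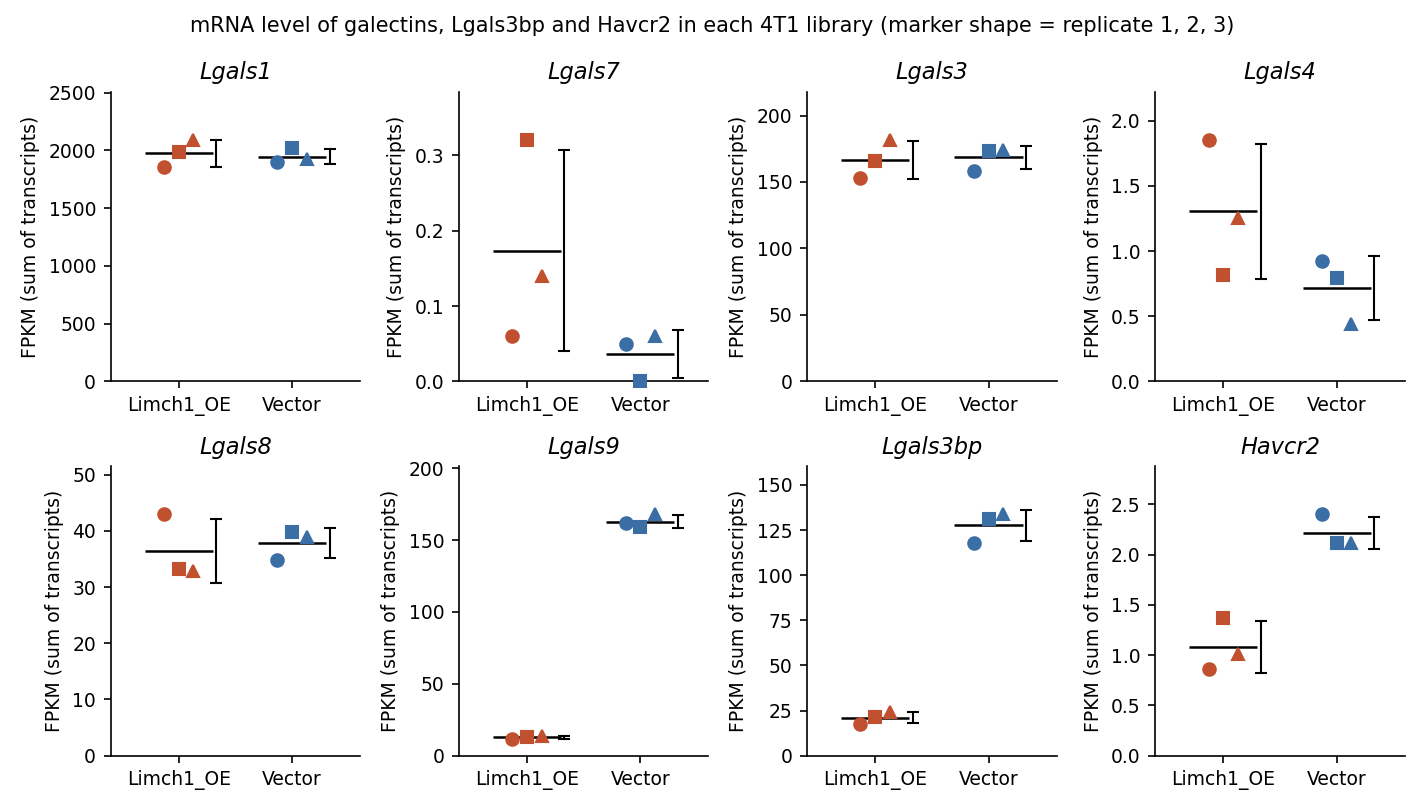
FPKM of each member in each library on axes that start at 0, Limch1_OE to the left of Vector, with a line at the mean and a bar of ± 1 SD (n = 3 each). Lgals9, Lgals3bp and Havcr2 were lower in every Limch1_OE library than in any Vector library, as were 20.5% of all tested genes. The other members overlapped between groups.

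Lgals9, which encodes galectin-9 (ENSMUSG00000001123, mm10 chr11:78962974-78984946, minus strand), had the largest change among the members. It was at 11.69, 13.19 and 13.78 FPKM in the Limch1_OE libraries, against 161.55, 158.76 and 167.81 FPKM in the Vector libraries. No Limch1_OE library came near the Vector range, and the spread within each group was small beside the gap. The means were 12.9 ± 1.08 FPKM in Limch1_OE libraries, against 163 ± 4.63 FPKM in Vector libraries (SD, n = 3 each). Lgals9 thus changed by -3.56 on the log2 scale (SE 0.06; limma adjusted p = 1.89e-09), which ranked 18 from the lowest among the 11842 tested genes. Only 0.262% of tested genes were called with a log2 fold change of -3 or below. In bulk RNA, fewer cells with the transcript and less transcript per cell cannot be told apart.

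The fall of Lgals9 was seen in both of its main listed transcripts, and the longer one was listed near 0 FPKM in Limch1_OE. Lgals9-202, with a coding sequence of 322 codons, was at 11.53, 12.98 and 13.55 FPKM in Limch1_OE and at 118.85, 141.7 and 125.7 FPKM in Vector. Lgals9-203, with 353 codons, was listed at 0.03, 0.01 and 0 FPKM in Limch1_OE and at 42.23, 16.56 and 41.63 FPKM in Vector. The longer form thus made up 0.257, 0.0758 and 0% of Lgals9 FPKM in Limch1_OE, against 26.1, 10.4 and 24.8% in Vector (exact two-sided permutation p = 0.1, the smallest that 3 libraries against 3 allow). At transcript level, 4.12% of 19905 tested transcripts were called lower. The log2 fold change was -3.24 for Lgals9-202 (SE 0.09, limma adjusted p = 6.79e-05) and -4.97 for Lgals9-203 (SE 0.37). Lgals9-203 reached the minimum of 1 FPKM only in the Vector libraries. It was thus tested only because it was high there, and its p-value is not given as support. The size for Lgals9-203 is set by the pseudocount, since its Limch1_OE values are near 0, and was -8.1 with a pseudocount of 0.1. Most exons are shared, so the split between transcripts is an estimate of the authors' processing. The share was lower in Vector replicate 2 than in the other Vector libraries. For another gene the split moved further: Lgals8-203 held 48.3% of Lgals8 FPKM in Limch1_OE replicate 3 and 0% in every other library. Whether the near-0 values of Lgals9-203 arose from the way reads were divided was not tested.

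The coding sequences of these transcripts differ by 1 exon, number 5 of the 11 in Lgals9-203, at mm10 chr11:78969714-78969806 on the minus strand. Its 93 bases add 31 codons, and in Lgals9-202 the flanking exons are joined directly. The exon is shown because it sets the coding sequences of these listed transcripts apart. Reads over the exon or its junctions were not analysed here. It is given from the GENCODE M21 transcript, with the exon in capitals and 30 bases of each neighbouring exon in lower case.
Lgals9 exon 5: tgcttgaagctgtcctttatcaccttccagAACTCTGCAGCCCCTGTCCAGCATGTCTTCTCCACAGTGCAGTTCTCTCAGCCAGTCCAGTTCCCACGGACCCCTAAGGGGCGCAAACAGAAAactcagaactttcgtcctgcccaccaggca

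**Figure D2:**
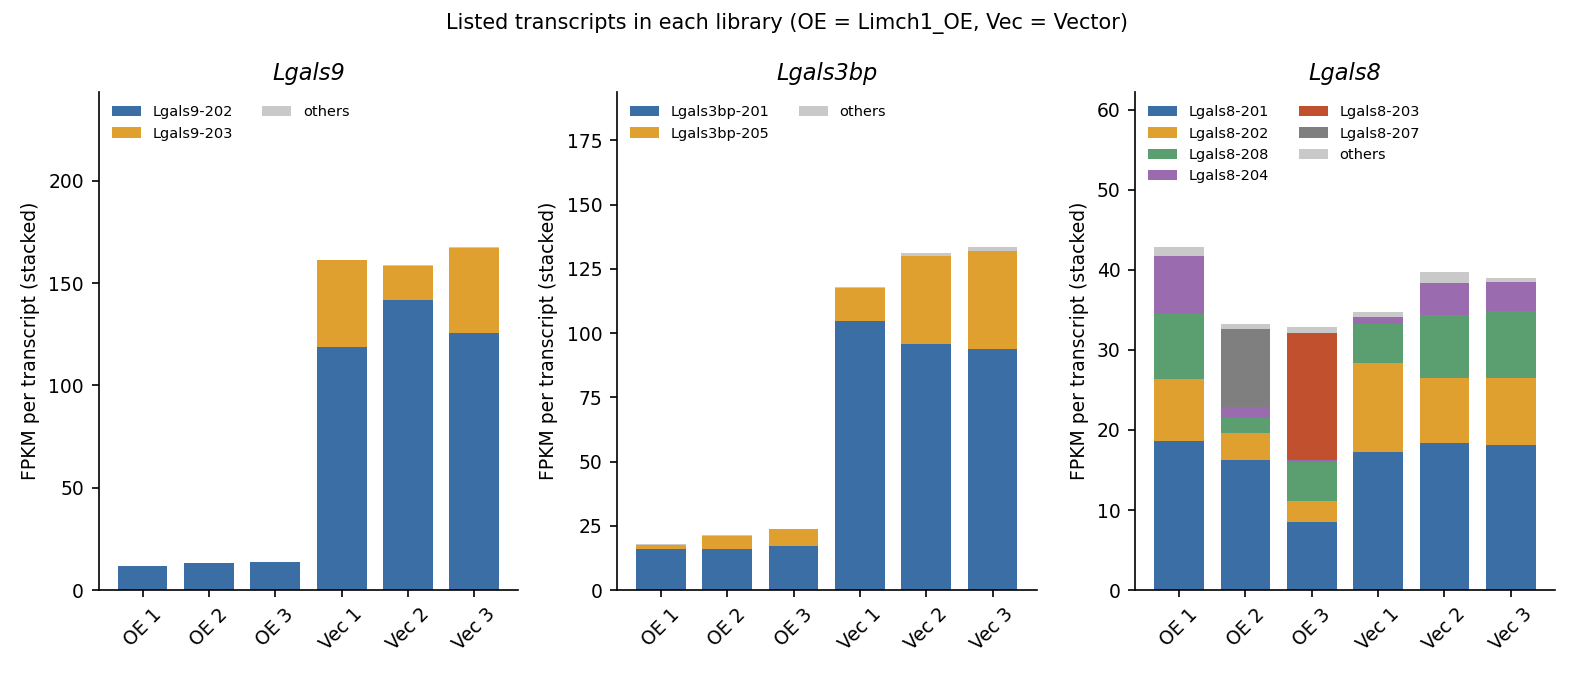
Stacked FPKM of the listed transcripts of Lgals9, Lgals3bp and Lgals8 in each library (OE, Limch1_OE, left; Vec, Vector, right), with transcripts below 3 FPKM everywhere joined as others. Lgals9-203 is visible only in Vector, and Lgals3bp kept both of its main transcripts in Limch1_OE. Lgals8 kept its total, while its estimated split between transcripts differed sharply between libraries.

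Lgals3bp encodes a large secreted glycoprotein, also known as Mac-2-binding protein, that binds galectin-3 and is known to be induced by interferons. The gene (ENSMUSG00000033880, mm10 chr11:118392751-118402092, minus strand) was at 17.77, 21.28 and 23.92 FPKM in Limch1_OE, against 117.99, 131.31 and 133.62 FPKM in Vector. The groups did not overlap, with every Limch1_OE library below every Vector library, as for 20.5% of all tested genes. The highest Limch1_OE library stayed far under the lowest Vector library. The means were 21 ± 3.09 FPKM in Limch1_OE libraries, against 128 ± 8.44 FPKM in Vector libraries (SD, n = 3 each), with a log2 fold change of -2.56 (SE 0.10, limma adjusted p = 1.71e-07). Only 0.642% of tested genes were called with a log2 fold change of -2 or below, and Lgals3bp ranked 54 from the lowest. Its 95% interval of -2.78 to -2.33 did not reach that of Lgals9, -3.70 to -3.42.

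The full-length transcript Lgals3bp-201, with 577 codons, carried most of this change. It was at 16.1, 16.17 and 17.3 FPKM in Limch1_OE and at 104.76, 95.83 and 93.84 FPKM in Vector, which gave -2.50 as log2 fold change (SE 0.06, limma adjusted p = 4.60e-05). The shorter Lgals3bp-205 was at 1.57, 4.76 and 6.34 FPKM in Limch1_OE and at 12.91, 34.16 and 38.13 FPKM in Vector. Its values varied widely within each group and rose from replicate 1 to replicate 3 in both. Its log2 fold change of -2.49 (SE 0.56) did not pass the test (limma adjusted p = 0.0599). It passed where the replicate number was added to the fit as a block (limma adjusted p = 0.00945). Lgals3bp-201 held between 72.3 and 90.6% of the gene's FPKM in Limch1_OE and between 70.2 and 88.8% in Vector, so the ranges of the transcript shares overlapped.

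Havcr2 (ENSMUSG00000020399, mm10 chr11:46454935-46481255, plus strand), the TIM-3 gene, was expressed at a low level. It was at 0.86, 1.37 and 1.01 FPKM in Limch1_OE, against 2.4, 2.12 and 2.12 FPKM in Vector. Every Limch1_OE library lay below every Vector library, as for 20.5% of all tested genes. The means were 1.08 ± 0.262 FPKM in Limch1_OE libraries, against 2.21 ± 0.162 FPKM in Vector libraries (SD, n = 3 each), and the difference on the log2 scale was -0.63 (SE 0.11; limma adjusted p = 0.00352). At this level the log2(FPKM + 1) scale understates the change, which was -0.99 with a pseudocount of 0.1. The gene has 1 listed transcript, and the same values did not pass in the fit over transcripts (limma adjusted p = 0.0527). It passed the minimum of 1 FPKM in all 3 Vector libraries and in 2 of the Limch1_OE libraries. The pan-leukocyte marker Ptprc averaged 0.00333 FPKM in Limch1_OE and had 0 FPKM in all 3 Vector libraries. The myeloid marker Csf1r was at 0.14, 0.08 and 0.1 FPKM in Limch1_OE, against 0.14, 0.37 and 0.22 FPKM in Vector, which is lower on average in Limch1_OE, as Havcr2 was. Coro1a was at 0.09, 0.27 and 0.13 FPKM in Limch1_OE, against 0, 0.28 and 0 FPKM in Vector. The part of such cells in the Havcr2 values was not tested.

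The promoters of the members that fell were compared because interferon-responsive genes often carry the interferon-stimulated response element. RefSeq promoter windows of 300 bases (GRCm38.p6, 250 bases before to 50 after the start site) matched 7 of the 8 members by symbol, all but Lgals1. They were searched on both strands for the core of that element (GAAA, 2 bases of any kind, GAAA) and for the gamma-activated sequence (TTC, 3 bases of any kind, GAA). After the sequences had been seen, a GAAA pair with a gap of 3 bases was added, and no matches overlapped. Capitals mark the matches.
Lgals9 promoter, chr11:78984875-78985174, minus strand: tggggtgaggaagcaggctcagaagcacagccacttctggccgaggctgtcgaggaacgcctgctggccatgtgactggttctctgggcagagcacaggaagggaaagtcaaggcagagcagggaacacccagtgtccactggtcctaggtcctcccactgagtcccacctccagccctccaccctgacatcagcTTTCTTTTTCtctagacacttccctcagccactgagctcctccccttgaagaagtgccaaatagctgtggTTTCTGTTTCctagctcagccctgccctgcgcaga
Lgals3bp promoter, chr11:118401910-118402209, minus strand: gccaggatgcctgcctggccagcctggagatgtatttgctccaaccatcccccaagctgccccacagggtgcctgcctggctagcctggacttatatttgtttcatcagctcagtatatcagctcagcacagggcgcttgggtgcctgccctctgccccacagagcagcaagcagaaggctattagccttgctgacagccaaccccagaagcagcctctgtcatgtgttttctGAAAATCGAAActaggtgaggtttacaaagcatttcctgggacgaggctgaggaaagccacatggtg
Havcr2 promoter, chr11:46454681-46454980, plus strand: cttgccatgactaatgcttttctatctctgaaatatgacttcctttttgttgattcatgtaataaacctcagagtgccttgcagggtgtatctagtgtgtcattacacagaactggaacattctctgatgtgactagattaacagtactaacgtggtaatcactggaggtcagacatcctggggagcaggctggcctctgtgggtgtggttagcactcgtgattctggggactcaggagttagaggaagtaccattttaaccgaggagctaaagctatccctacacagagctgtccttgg

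The Lgals9 window held 2 matches to the response element core, both on the strand opposite to the gene and not overlapping. The first spanned bases -55 to -46 from the start site and the second bases 16 to 25 after it. Of 32851 mouse promoter windows 3.44% held at least 1 such match and 0.225% held at least 2. The Lgals3bp window held no such match but 1 GAAA pair with a gap of 3 bases, a motif found in 2.75% of windows. Since that motif was added after the sequences had been seen, the share does not measure how unusual the match is. The match lay at bases -17 to -7 from the RefSeq start site, chr11:118401966-118401976. The main listed transcript, Lgals3bp-201, starts at chr11:118402092 on the minus strand, so the match lies downstream of that start. The windows of Havcr2, Lgals3, Lgals4, Lgals7 and Lgals8 held no match to any of these, and none of the 7 windows held the gamma-activated sequence, which 8.3% of all windows did. A match is a run of letters and not a measured binding site.

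Lgals1, which encodes galectin-1, was by far the most abundant member (ENSMUSG00000068220, mm10 chr15:78926725-78930465, plus strand). It was at 1854.58, 1982.82 and 2087.04 FPKM in Limch1_OE, against 1894.62, 2021.94 and 1921.34 FPKM in Vector. The groups overlapped fully. The log2 fold change was 0.02 (95% interval -0.13 to 0.17, limma adjusted p = 0.838). Its direction depended on the scaling: trimmed-mean scaling gave -0.05 and quantile normalization -0.20, past the threshold (limma adjusted p = 0.04).

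Lgals3, which encodes galectin-3, the partner of the Lgals3bp product, was at 152.95, 166.11 and 181.41 FPKM in Limch1_OE, against 158.33, 172.99 and 174.32 FPKM in Vector. The ranges overlapped, and the log2 fold change was -0.02 (95% interval -0.17 to 0.14, limma adjusted p = 0.87). Its RNA was divided almost evenly between the full-length transcripts Lgals3-201 and Lgals3-204, which code for the same 264 codons. Lgals3-201 averaged 80.6 FPKM in Limch1_OE, against 83.7 FPKM in Vector, and Lgals3-204 averaged 84.6 FPKM in Limch1_OE, against 83.6 FPKM in Vector.

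Lgals8, which encodes galectin-8, was at 42.9, 33.2 and 32.93 FPKM in Limch1_OE, against 34.75, 39.75 and 38.95 FPKM in Vector. The log2 fold change was -0.06 (95% interval -0.29 to 0.16, limma adjusted p = 0.655). It was -0.19 without Limch1_OE replicate 1 (limma adjusted p = 0.0645), -0.0002 without Limch1_OE replicate 3 and -0.36 with the most abundant transcript (limma adjusted p = 0.411). The total hid large jumps between its 10 listed transcripts. Lgals8-203 was listed at 15.89 FPKM in Limch1_OE replicate 3 and at 0 in the other 5 libraries, and Lgals8-207 at 9.66 FPKM in Limch1_OE replicate 2 and at 0 in the other 5. In those same libraries other Lgals8 transcripts were low, with Lgals8-201 at 8.48 FPKM in Limch1_OE replicate 3 and Lgals8-208 at 1.83 FPKM in Limch1_OE replicate 2. None of the 4 tested Lgals8 transcripts passed the test.

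Lgals4, which encodes a galectin of the gut epithelium, was at 1.85, 0.82 and 1.25 FPKM in Limch1_OE and at 0.92, 0.79 and 0.44 FPKM in Vector. Lgals7, which encodes a galectin of stratified epithelia, was at 0.06, 0.32 and 0.14 FPKM in Limch1_OE and at 0.05, 0 and 0.06 FPKM in Vector. Both were higher on average in Limch1_OE, with overlapping libraries (exact two-sided permutation p = 0.2 each). Of the remaining galectin genes, the galectin-like Lgalsl was at 15.7 ± 1.55 FPKM in Limch1_OE libraries, against 16.4 ± 0.733 FPKM in Vector libraries (SD, n = 3 each; limma adjusted p = 0.605). Lgals2 was at 1.06 ± 0.611 FPKM in Limch1_OE, against 0.473 ± 0.276 FPKM in Vector, and Lgals12 was listed at 0 in Limch1_OE and averaged 0.0267 FPKM in Vector. Lgals6 and Grifin, and the TIM family genes Havcr1, Timd2 and Timd4, were not analysed here.

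The order of the galectin genes changed at Lgals9. In Limch1_OE it ran Lgals1, Lgals3, Lgals8, Lgals9, Lgals4 and Lgals7 with no overlap between neighbours. In Vector it ran Lgals1, Lgals3, Lgals9, Lgals8, Lgals4 and Lgals7, and there the libraries of Lgals3 and Lgals9 overlapped. The 6 galectin genes summed to 2192 ± 126 FPKM in Limch1_OE libraries, against 2316 ± 72.9 FPKM in Vector libraries (SD, n = 3 each), with overlapping ranges. Lgals9 made up 0.587 ± 0.0183% of that sum in Limch1_OE and 7.03 ± 0.352% in Vector, and Lgals1 made up 90.1 ± 0.211% in Limch1_OE and 84 ± 0.531% in Vector. Lgals3 held 7.6 ± 0.213% in Limch1_OE and 7.28 ± 0.27% in Vector.

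**Figure D3:**
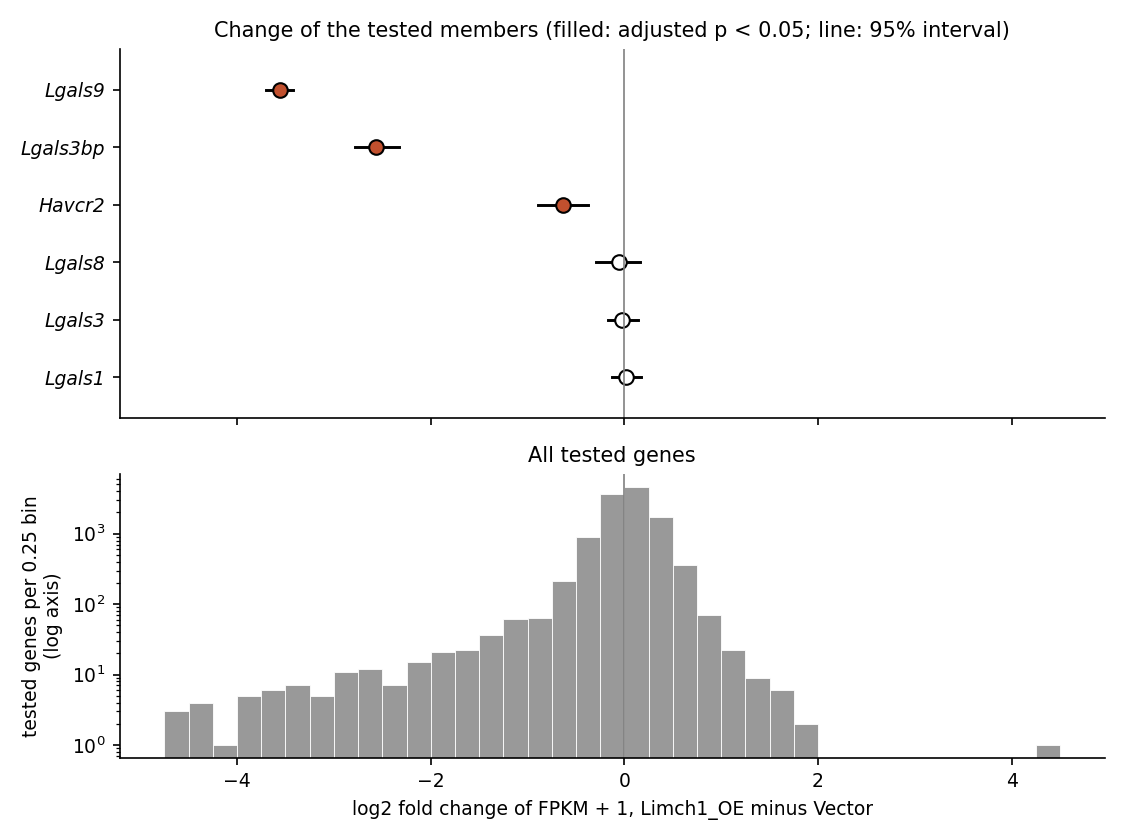
Above, log2 fold change of the 6 tested members (Limch1_OE minus Vector, on the log2(FPKM + 1) scale) with its 95% interval, filled where the gene was called. Below, the number of all tested genes in each bin on a log axis: Lgals9 at -3.56 and Lgals3bp at -2.56 lie in the thin lower tail, Havcr2 at -0.63 at its shoulder, and Lgals8, Lgals3 and Lgals1 near the centre.

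The genes whose pattern over the 6 libraries was most like that of Lgals9 were Mx2, Tgtp1, Isg15, Trim30a and Ifit1. Likeness was the root mean square difference of log2(FPKM + 1) after centring each gene on its Vector mean, which was 0.04 for Mx2, 0.09 for Tgtp1 and Isg15, 0.1 for Trim30a and 0.12 for Ifit1, with a median of 2.55 over all tested genes. All are known as interferon-stimulated genes. Mx2, a dynamin-like antiviral GTPase gene, was at 1.69 ± 0.245 FPKM in Limch1_OE libraries, against 31.5 ± 2.04 FPKM in Vector libraries (SD, n = 3 each), and Isg15, a ubiquitin-like modifier gene, at 27.7 ± 2.83 FPKM in Limch1_OE libraries, against 335 ± 43.9 FPKM in Vector libraries. Tgtp1 has a near-identical copy, Tgtp2, so its own level is uncertain. Since Lgals9 was chosen with its change known and the groups differ throughout, this likeness is a description. The measure follows mainly the group difference, so the median of 2.55 largely restates the fall of Lgals9 itself.

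Genes of the galectin pathway outside the members changed by less than Lgals9 and Lgals3bp. Among glycoproteins that galectins are known to bind, 15 were tested, of which 4 were called higher and 2 lower, with a median log2 fold change of -0.03 beside 0.04 for all tested genes, of which 20.2% were called higher and 14.4% lower. Trimmed-mean scaling turned this split to 2 higher and 3 lower. Over all 11842 tested genes it gave 1634 higher and 2312 lower, against 2388 and 1706 without it. Nrp1, a receptor bound by galectin-1, rose to 7.54 ± 0.767 FPKM in Limch1_OE, against 4.22 ± 0.39 FPKM in Vector (SD, n = 3 each; log2 fold change 0.71, limma adjusted p = 6.48e-04). The integrin gene Itga3 fell by 0.42 and Itga5 by 0.24 on the log2 scale, and the transferrin receptor gene Tfrc rose by 0.21. The call of Itga5 ended without Limch1_OE replicate 2 (limma adjusted p = 0.0524) or Vector replicate 2 (0.0565), and with the most abundant transcript (0.0536). That of Tfrc ended without Limch1_OE replicate 1 (limma adjusted p = 0.0715), Vector replicate 1 (0.0896) or Vector replicate 2 (0.101), and also with trimmed-mean scaling (0.0957), no filter (0.0641) or the most abundant transcript (0.122). Cd44, which binds galectin-9 as well as hyaluronan, was at 148 ± 1.57 FPKM in Limch1_OE libraries, against 153 ± 2.47 FPKM in Vector libraries (SD, n = 3 each; limma adjusted p = 0.436).

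The TIM-3 partners that were tested did not pass. Hmgb1, which encodes an alternative TIM-3 ligand, differed by 0.04 on the log2 scale (limma adjusted p = 0.883), and Bag6, whose product binds the TIM-3 tail, by 0.17 (limma adjusted p = 0.0711). Bag6 passed without Limch1_OE replicate 1 (limma adjusted p = 0.0495), and its direction turned to -0.23 when read from its most abundant transcript. The kinase genes Fyn and Lck had -0.09 and 0.19 (limma adjusted p = 0.261 and 0.355). Ceacam1, another TIM-3 ligand gene, averaged 0.0367 FPKM in Limch1_OE, against 0.03 FPKM in Vector.

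Of the enzymes that build the galactose-bearing glycans galectins bind, 21 were tested, of which 6 were called lower and 2 higher, with a median log2 fold change of -0.04. Together these 8 calls are a share near the 34.6% called among all tested genes. By direction the list differed, since 14.4% of all tested genes were called lower and 20.2% higher. With trimmed-mean scaling 8 were called lower and 1 higher. That scaling also moved the calls over all 11842 tested genes, to 2312 lower and 1634 higher, against 1706 and 2388 without it. B3gnt3, which extends core O-glycans, fell to 54.1 ± 3.38 FPKM in Limch1_OE, against 84 ± 0.596 FPKM in Vector (SD, n = 3 each; log2 fold change -0.63, limma adjusted p = 5.21e-05). Gcnt2, which branches poly-N-acetyllactosamine, fell by 0.47 and Mgat1, which starts complex N-glycans, by 0.29 on the log2 scale, and the galactosyltransferase gene B4galt2 rose by 0.45. Mgat5, the enzyme of the branch that galectin-3 prefers, was at 6.03 ± 0.209 FPKM in Limch1_OE libraries, against 6.9 ± 0.345 FPKM in Vector libraries (SD, n = 3 each) and did not pass (limma adjusted p = 0.0865). Mgat5 was picked for mention with its value known.

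Sialyltransferases and fucosyltransferases add sialic acid and fucose to glycans, and not all of those listed act on galactose. Of the 13 tested, 6 were called higher and 0 lower, with a median log2 fold change of 0.23. Among all tested genes 20.2% were called higher. St3gal1, which caps core O-glycans with sialic acid, was at 7.81 ± 0.69 FPKM in Limch1_OE libraries, against 4.01 ± 0.357 FPKM in Vector libraries (SD, n = 3 each; log2 fold change 0.81, limma adjusted p = 2.15e-04). St3gal3 rose by 0.70, St6galnac6 by 0.68 and the fucosyltransferase gene Fut11 by 0.41, where the call of Fut11 ended without Vector replicate 2 (limma adjusted p = 0.0521) or with no filter (0.0709). St6gal1, whose α2,6-linked sialic acid blocks the binding of several galectins, rose by 0.23 (limma adjusted p = 0.012) and was likewise picked with its value known. Where each gene was read from its most abundant transcript, St6galnac6 and Fut11 did not pass (limma adjusted p = 0.0744 and 0.0685). In that setting 3 genes of this list were called higher and 0 lower, beside 997 called higher among all 11556 tested genes.

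Of 11 tested genes of the response to damaged lysosomes, in which galectin-3 and galectin-8 act, 2 were called lower and 0 higher, a share near the 14.4% called lower among all tested genes, with a median log2 fold change of -0.06. Chmp4b, a membrane-repair subunit of the ESCRT machinery, fell to 75.9 ± 1.32 FPKM in Limch1_OE, against 108 ± 1.08 FPKM in Vector (SD, n = 3 each; log2 fold change -0.51, limma adjusted p = 3.70e-05). The autophagy receptor gene Optn fell by 0.28 on the log2 scale, a call that ended with its most abundant transcript (limma adjusted p = 0.15). Trim16, whose product is a partner of galectin-3, differed by -0.06 on the log2 scale and did not pass (limma adjusted p = 0.522).

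**Figure D4:**
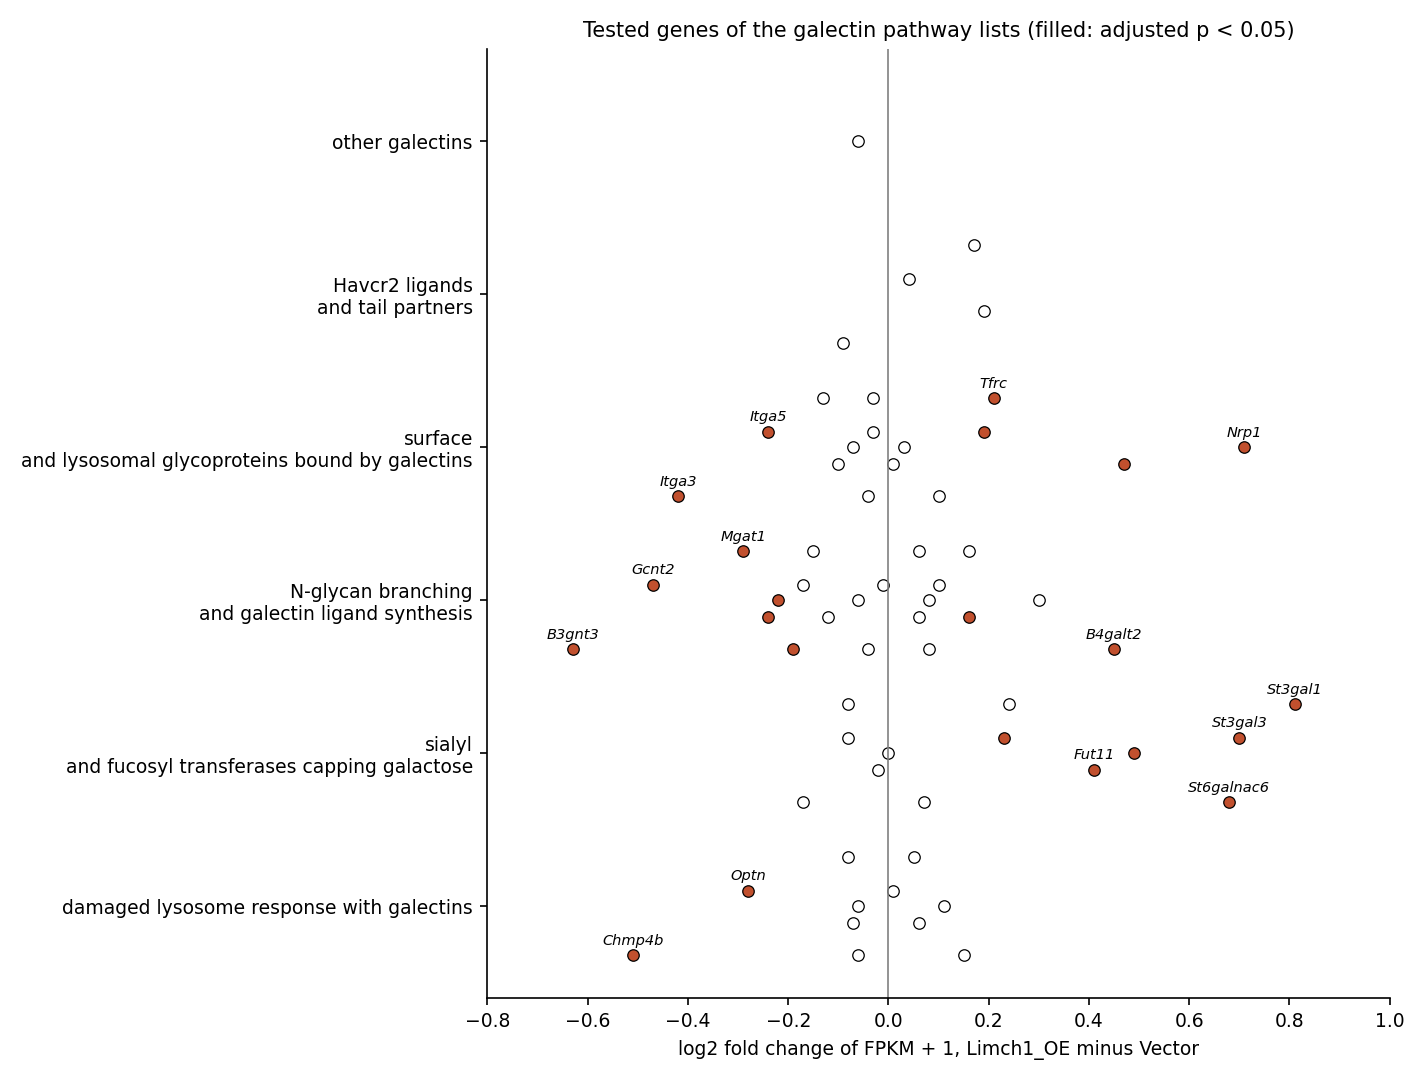
Log2 fold change of FPKM + 1 (Limch1_OE minus Vector) of each tested gene of the pathway lists, filled where called at an adjusted p under 0.05, with the list genes of largest change named. Glycan-building enzymes scatter to both sides, whereas the called sialyl- and fucosyltransferases, 6 of 13, all lie to the right of 0. Among all tested genes 20.2% were called higher.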

How the data were processed

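RNA of 4T1 cells was sequenced in 3 Limch1_OE and 3 Vector libraries, grouped by title because another label numbers the cell line and gene consecutively. The authors deposited FPKM per transcript, to 2 decimals. Tools listed, per the submitters' processing notes, are StringTie 2.2.1, featureCounts 2.0.1, STAR 2.7.10 and fastp 0.23.2, with build mm10. The sources used here do not give their roles, the annotation, strand use or the handling of shared reads.

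Transcripts were summed per gene. GENCODE M21 (mm10) named 26033 of 26094 genes. Low values of short single-transcript genes came out whole (within 0.15 of a read) in at most 41.2% of cases at any assumed depth, where 30% is chance, so depth is unknown and no counting interval is given. No columns held identical values. limma 3.58.1 in R 4.3.3 (eBayes with trend, two-sided) tested log2(FPKM + 1), and was checked on artificial data with known changes. Alternatives changed the pseudocount, filter, scaling, transcript summing, variance trend, replicate block and each replicate.

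Members, lists and tests were chosen with earlier results of these data known. Named besides the members and Limch1 were the 5 genes most like Lgals9 and, per list, up to 4 called genes of largest change averaging at least 2 FPKM. Others are marked where named or stand as values.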

Additional observations from a re-analysis of the deposited data

How the results depend on the processing

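Lgals9, Lgals3bp and Limch1 kept their direction and their call under all 14 alternatives, with log2 fold changes between -3.65 and -3.24 for Lgals9, between -2.65 and -2.45 for Lgals3bp and between 4.4 and 6.55 for Limch1. Havcr2 kept both under the 13 that tested it (-0.99 to -0.56, limma adjusted p at most 0.0252), and a mean of at least 5 FPKM left it out. Lgals1 stood at -0.05 after trimmed-mean scaling, at -0.20 after quantile normalization and between -0.02 and 0.06 with a replicate left out, and Lgals3 at 0.04 with quantile normalization, 0.01 with the most abundant transcript and between -0.08 and 0.04 with a replicate left out. Lgals8 lay between -0.36 and -0.0002 and was called under none of the 14. The most abundant transcript put Lgals9 at 0.616% of galectin FPKM in Limch1_OE and 5.98% in Vector, where every galectin gene keeps 1 transcript, and reduced the calls at gene level to 1996, against 4094. Calls with a replicate left out lay between 2882 and 3778 at gene level and between 501 and 867 at transcript level, against 1442 with all libraries. Transcript calls were 562 with no filter and 336 with the replicate block. Over all tested genes, the numbers of the titles did not pair the libraries (correlations of 0, 0.05 and 0.06 between deviations of same-numbered libraries). The block changed no call of a member at gene level, where it gave 3808 calls in all, and it put transcript Lgals3bp-205 past the threshold (limma adjusted p = 0.00945). Of the TIM-3 partners 0 were called, or 1 with quantile normalization, the replicate block or without Limch1_OE replicate 1, each time Bag6, which stood at -0.23 with the most abundant transcript, against 0.17. Sialyl- and fucosyltransferase calls were 2 of 7 tested under the 5 FPKM minimum and 3 of 13 with the most abundant transcript, against 6 of 13. Over all tested genes, 1820 of 8809 were called higher under that minimum and 997 of 11556 with the most abundant transcript. The unknown depth limits what can be said of Lgals4, Lgals7 and Havcr2.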

Other observations

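The 3 members that fell lie on mouse chromosome 11 and the 3 tested members that were not called lie on chromosomes 13, 14 and 15. Of 955 tested genes on chromosome 11, 17.1% were called lower, against 14.4% of all tested genes. The nearest tested gene to Lgals9 on the side of lower coordinates, 2.72 kb away, was Nos2, the inducible nitric oxide synthase gene, at 38.7 ± 3.28 FPKM in Limch1_OE libraries, against 70.7 ± 1.89 FPKM in Vector libraries (SD, n = 3 each; log2 fold change -0.86, limma adjusted p = 2.24e-05). On the other side, 28.5 kb away, Ksr1 had -0.01 (limma adjusted p = 0.967). The tested neighbours of Lgals3bp were Cant1, 4.2 kb away, which fell by 0.15 on the log2 scale (limma adjusted p = 0.0478), and Timp2, 37 kb away, which rose by 0.23 (limma adjusted p = 0.0044). Next to Lgals1, Pdxp rose by 0.70 and Nol12 by 0.36 on the log2 scale, while Lgals1 itself did not pass the test. Next to Havcr2, Med7 had -0.02 (limma adjusted p = 0.9), and Gm12174, 247 kb away, rose by 0.35 (limma adjusted p = 0.00196). Dlgap5, next to Lgals3, fell by 0.17 and Mapk1ip1l, on its other side, had 0.03 without passing. Mtr, next to Lgals8, rose by 0.22 and Ero1lb, on its other side, had 0.19 without passing. Lgals4 and Lgals7 share their nearest tested genes, Actn4, which fell by 0.17, and Ech1, which had 0.16 without passing. All are the nearest tested genes on either side of each member.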
